A study of Mus musculus with 12 samples.

Results

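The dystrophin glycoprotein complex was followed through 8 genes, Dmd, Utrn, Dag1, Sgca, Sgcb, Sgcd, Dtna and Sspn, chosen by name as parts of this complex or, for Utrn, as the relative that can take the place of dystrophin. Each had exactly 1 probe set that carried its symbol alone, so the 8 genes were 8 of the 18820 genes measured. Expression was read with 12 Affymetrix Mouse Gene 1.1 ST arrays from hind limb skeletal muscle and heart of C57BL/6 mice 11 days old. Each tissue was taken from Tk2+/+ and from Tk2-/- mice, which made 4 groups of 3 arrays. Tk2+/+ mice are wild-type, and Tk2-/- mice lack thymidine kinase 2, the mitochondrial enzyme that phosphorylates thymidine and deoxycytidine for mitochondrial DNA synthesis, in every tissue. The methods name 3 different mice of each genotype, bred from heterozygous parents. In skeletal muscle, Xist, which marks female tissue, was bright on 1 Tk2+/+ array and 2 Tk2-/- arrays of 3 each, and in heart on 2 Tk2+/+ arrays and all 3 Tk2-/- arrays, so with the labels as given the arrays of both tissues cannot all come from the same mice. No drug or other treatment was given. The values are linear intensities of probe sets, called signal here. Signals were raised by 16 and put on the log2 scale, the 4 groups were fitted together with limma, and a gene was called changed at an adjusted p under 0.05 over all genes. Changes are therefore on the log2(signal + 16) scale and given with their standard error (SE). They are understated for the dimmer genes, most where signals are near 16.

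The complex links the actin cytoskeleton under the muscle membrane to the basement membrane outside the fibre. Dystrophin binds actin at one end and β-dystroglycan at the other, α-dystroglycan binds laminin through sugar chains, and the sarcoglycans and sarcospan form a ring of membrane proteins beside dystroglycan. Dystrobrevin and the syntrophins bind the tail of dystrophin and hold signalling proteins and channels at the membrane. Loss of dystrophin causes Duchenne muscular dystrophy and loss of a sarcoglycan a limb-girdle muscular dystrophy, and heart muscle is affected in several of these diseases.

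In the annotation of GRCm38.p6, Dmd lies at chrX:82814664-85205050, Utrn at chr10:12382187-12869888, Dag1 at chr9:108204861-108263977 and Sgca at chr11:94962777-94976327. Sgcb lies at chr5:73632749-73647737, Sgcd at chr11:46971077-47989451 and Sspn at chr6:145931873-145965225. Dmd is X-linked, and its gene is the longest of the 8, at 2390.4 kb. Each probe set gave 1 value per gene, so the isoforms of Dmd, Dtna and Dag1 and the start sites they use were not told apart.

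The RefSeq promoters held 10 windows for 7 of the 8 genes, each from 250 bases before to 50 bases after a start site. The windows of 3 genes are printed, because Dmd was the gene called higher in Tk2-/- skeletal muscle and Sgca and Sspn were the members with the largest tissue differences in opposite directions. Capitals mark E-boxes (CANNTG, the core bound by myogenic and many other basic helix-loop-helix factors) and the CArG box, the serum response element.
Dmd, upstream start, chrX:82948620-82948919, plus strand: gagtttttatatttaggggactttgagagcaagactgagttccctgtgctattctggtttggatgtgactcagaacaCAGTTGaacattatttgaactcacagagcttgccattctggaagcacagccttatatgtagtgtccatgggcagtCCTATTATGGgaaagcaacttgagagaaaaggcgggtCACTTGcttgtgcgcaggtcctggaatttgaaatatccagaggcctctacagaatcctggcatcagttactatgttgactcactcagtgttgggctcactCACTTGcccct
Dmd, downstream start, chrX:85048045-85048344, plus strand: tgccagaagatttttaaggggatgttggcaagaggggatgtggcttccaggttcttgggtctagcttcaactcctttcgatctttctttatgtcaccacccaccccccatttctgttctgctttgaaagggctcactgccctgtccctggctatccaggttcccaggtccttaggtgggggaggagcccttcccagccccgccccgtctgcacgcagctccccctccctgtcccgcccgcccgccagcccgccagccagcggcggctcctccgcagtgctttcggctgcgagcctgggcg
Sgca, chr11:94976278-94976577, minus strand: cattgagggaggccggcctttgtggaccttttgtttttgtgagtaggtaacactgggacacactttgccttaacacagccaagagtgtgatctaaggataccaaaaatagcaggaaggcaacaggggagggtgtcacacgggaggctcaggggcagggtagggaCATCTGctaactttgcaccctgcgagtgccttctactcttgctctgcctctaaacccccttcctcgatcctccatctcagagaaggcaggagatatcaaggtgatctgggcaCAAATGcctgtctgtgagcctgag
Sspn, upstream start, chr6:145931623-145931922, plus strand: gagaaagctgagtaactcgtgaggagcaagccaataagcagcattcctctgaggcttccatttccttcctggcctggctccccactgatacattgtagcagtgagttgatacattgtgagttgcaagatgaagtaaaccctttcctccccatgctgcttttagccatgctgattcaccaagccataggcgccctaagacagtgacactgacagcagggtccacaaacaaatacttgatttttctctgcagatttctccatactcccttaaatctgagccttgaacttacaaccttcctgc
Sspn, downstream start, chr6:145933872-145934171, plus strand: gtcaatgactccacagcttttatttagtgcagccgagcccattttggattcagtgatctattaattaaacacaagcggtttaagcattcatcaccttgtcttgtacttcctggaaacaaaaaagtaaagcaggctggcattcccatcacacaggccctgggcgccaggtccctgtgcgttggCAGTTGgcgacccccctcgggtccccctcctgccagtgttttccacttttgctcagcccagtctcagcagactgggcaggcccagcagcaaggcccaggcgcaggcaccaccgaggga
The upstream Dmd window held 3 E-boxes and a CArG box, with 45.7% G and C. The downstream Dmd window held no E-box and 3 GC boxes (GGGCGG, either strand), with 62.7% G and C against a median of 52.7% over all promoters. The Sgca window had 2 E-boxes, the downstream Sspn window 1 and the upstream Sspn window none. E-boxes were found in 7 of the 10 windows and in 72.3% of all 32851 promoters of the same length, GC boxes in 5 of 10 and 35.7%, and the TATA box (TATAAA) in 2 of 10 and 13.6%. A CArG box occurred in 1 of the 10 windows and in 1.63% of all promoters, and a MEF2 motif in none of them and in 0.557%. Motifs were searched on both strands, and the motifs may overlap. A match of letters is not a site that was shown to be bound.

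Before the results, the arrays themselves differed. The mean signal over all probe sets was 146.7 to 168.4 on the Tk2-/- heart arrays, against 227.4 to 242.6 in Tk2+/+ heart, 201.8 to 252.4 in Tk2+/+ skeletal muscle and 224.9 to 245.9 in Tk2-/- skeletal muscle. In heart the median change of all genes was -0.28, and among the 4957 genes with a mean signal over 200, as all 8 genes here, it was -0.68, with 94.6% of them below 0. Heart values are therefore given as deposited and after quantile normalization within the tissue, which puts the arrays of a tissue on 1 distribution. Tk2 itself had 62.9 to 68.5 in Tk2+/+ and 44.1 to 64.7 in Tk2-/- skeletal muscle, which overlapped, and 70.2 to 81.8 in Tk2+/+ against 30.1 to 46.2 in Tk2-/- heart, and whether its probes lie in the deleted part is not known here. Skeletal fibre markers (10 of 10, among them Acta1 and Myh4) were higher in Tk2+/+ skeletal muscle than in Tk2+/+ heart, and 8 of 9 cardiomyocyte markers were higher in heart, so the tissues matched their labels.

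**Figure D1:**
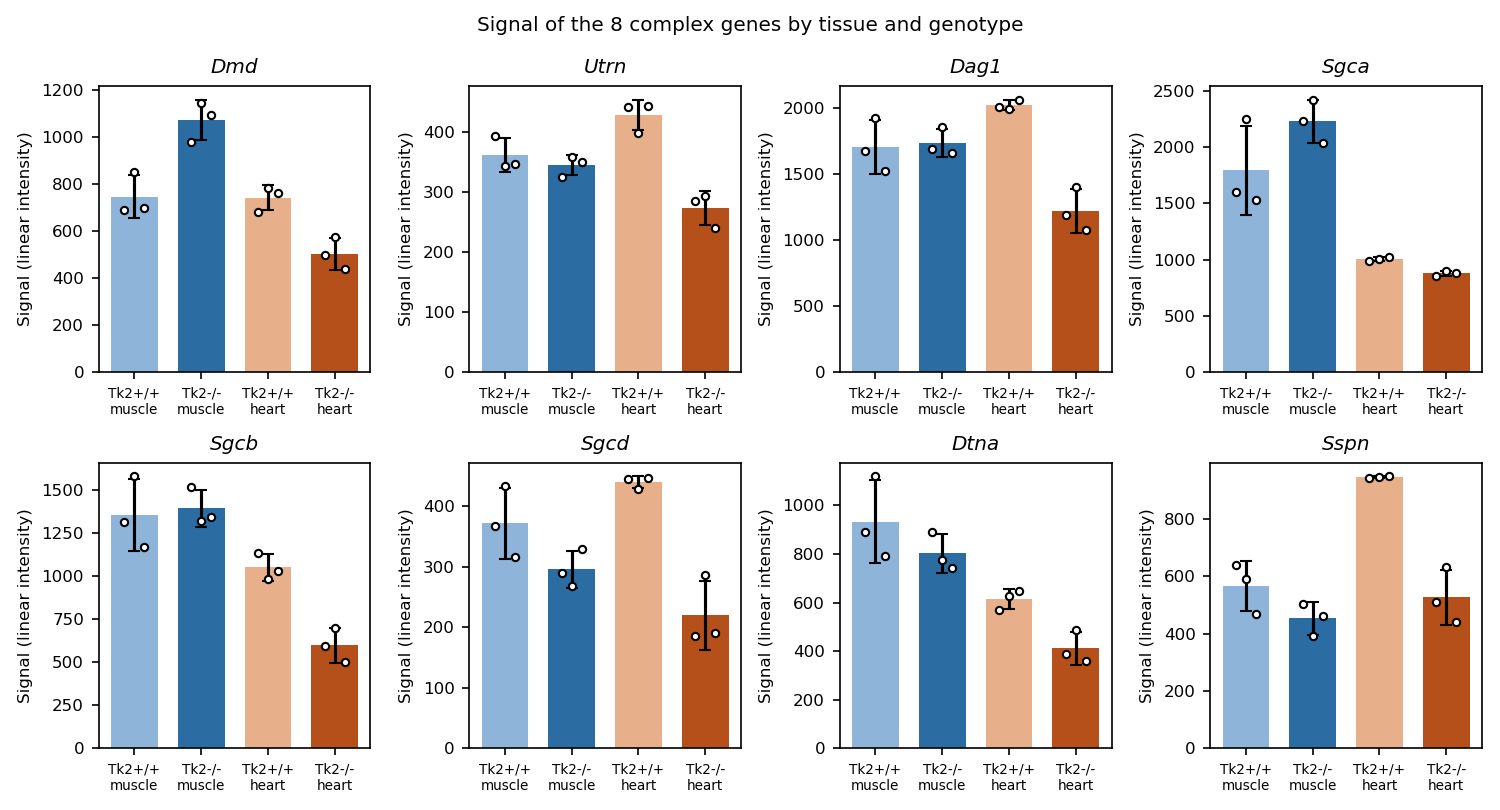
Signal (linear intensity) of the 8 genes, 1 panel each, in the 4 groups. Bars show the mean, error bars the SD and circles the 3 single arrays of a group. Dmd is highest in Tk2-/- skeletal muscle (980 to 1148), and Sspn is highest in Tk2+/+ heart (944 to 949).

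In skeletal muscle, Dmd was called higher in Tk2-/- mice as deposited and after quantile normalization within the tissue, and as deposited no other member passed. After that normalization Sgcd, Dtna and Sspn were called lower. Dmd encodes dystrophin, the rod between actin and the membrane. Its signals were 688, 852 and 698 in Tk2+/+ and 980, 1148 and 1096 in Tk2-/- skeletal muscle, so every Tk2-/- array lay above every Tk2+/+ array. The mean was 746 ± 91.8 in Tk2+/+ and 1075 ± 85.7 in Tk2-/- (SD, n = 3 each), a log2 change of 0.52 (SE 0.12, adjusted p = 0.00493), or 1.44-fold. Quantile normalization within the tissue left a change of 0.40 (adjusted p = 0.00641). Over the fits that left out 1 array, the change ran from 0.47 to 0.62 as deposited and from 0.33 to 0.47 after quantile normalization, with the call kept each time. As deposited 1 of 8 members, or 12.5%, was called higher and 0 lower (at an unadjusted p under 0.05, limma gave 2 higher and 1 lower), near the 11.6% of all genes called higher, while 10.9% were called lower, and 16.9% of all genes had every Tk2-/- array above every Tk2+/+ array. The study's own kind of test, run per gene and adjusted by Benjamini-Hochberg, did not call Dmd. Because Dmd is X-linked, sex as read from Xist was put in the model, and the change was then 0.57 (adjusted p = 0.00426).

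Utrn and Dag1 had close levels in the skeletal muscle of both genotypes. Utrn encodes utrophin, which joins actin to dystroglycan at neuromuscular junctions and, in immature muscle, along the membrane. It had signals of 394, 343 and 347 in Tk2+/+ and 326, 358 and 351 in Tk2-/- skeletal muscle, which overlapped. The log2 difference was -0.06 (SE 0.10, adjusted p = 0.766), with a 95% interval from -0.28 to 0.16. Dag1 encodes the precursor of both dystroglycans. Its signals were 1675, 1923 and 1520 in Tk2+/+ and 1685, 1855 and 1659 in Tk2-/- skeletal muscle, a difference of 0.03 (adjusted p = 0.916) with an interval from -0.22 to 0.27.

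The sarcoglycans did not move together in skeletal muscle. Sgca, the sarcoglycan found in striated muscle alone, had 1598, 2253 and 1527 in Tk2+/+ and 2237, 2422 and 2038 in Tk2-/- arrays. The second Tk2+/+ array was brighter than 2 of the Tk2-/- arrays, and the difference of 0.33 (SE 0.13) did not pass (adjusted p = 0.0785). That array also had the highest mean signal over all probe sets in its group, 252.4. Without it the difference was 0.51 (adjusted p = 0.00264), but leaving out any other single array gave no call. Over these fits the difference ran from 0.23 to 0.51. Quantile normalization within the tissue gave 0.22, which did not pass (adjusted p = 0.0513). With sex in the model the difference as deposited was 0.39 (adjusted p = 0.0453). Sgcb, a core subunit that is needed for assembly of the others, had 1314, 1583 and 1170 in Tk2+/+ and 1518, 1320 and 1348 in Tk2-/- arrays, a difference of 0.05 (adjusted p = 0.867). Sgcd, its partner in that core, had 368, 433 and 316 against 290, 269 and 329, a difference of -0.31 (SE 0.15, adjusted p = 0.173). Of the 3 sarcoglycans, the estimate was thus positive for Sgca, near 0 for Sgcb and negative for Sgcd.

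Dtna and Sspn had lower mean signals in Tk2-/- skeletal muscle, with overlapping arrays. Dtna, at chr18:23310006-23659719, encodes α-dystrobrevin, the dystrophin-related protein on the cytoplasmic side. Its signals were 890, 1121 and 792 in Tk2+/+ and 892, 774 and 741 in Tk2-/- skeletal muscle (log2 difference -0.20, adjusted p = 0.357). Sspn encodes sarcospan, a protein that crosses the membrane 4 times and binds the sarcoglycans, and it had 639, 589 and 469 against 505, 393 and 460 (-0.31, adjusted p = 0.141). With quantile normalization within the tissue, Sgcd (-0.37, adjusted p = 0.0344), Dtna (-0.32, adjusted p = 0.0161) and Sspn (-0.41, adjusted p = 0.0156) were called lower in Tk2-/- skeletal muscle, where 13.8% of all genes were called higher and 14.8% lower. These 3 calls rested on single arrays. The call of Sgcd was lost without Tk2+/+ replicate 1 or 2 or Tk2-/- replicate 1 or 2, that of Dtna without Tk2+/+ replicate 2 or Tk2-/- replicate 2 or 3, and that of Sspn without Tk2+/+ replicate 1 or Tk2-/- replicate 2. Across the 8 genes the median change as deposited was -0.02, the same as over all genes.

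**Figure D2:**
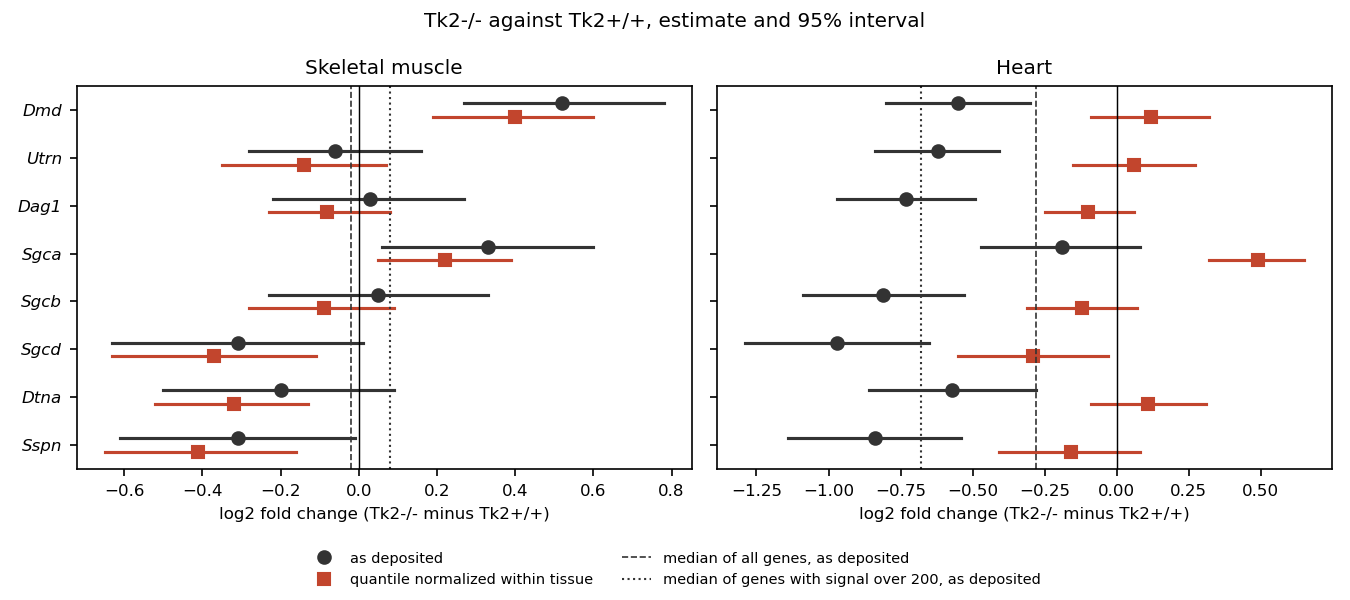
Log2 change of each gene between Tk2-/- and Tk2+/+ in skeletal muscle (left) and heart (right), with 95% intervals, as deposited (circles) and after quantile normalization within the tissue (squares); vertical lines mark 0 and the medians of all genes and of genes with a signal over 200. Dmd in skeletal muscle is to the right of 0 under both, at 0.52 and 0.40, whereas the heart values as deposited gather around the median of -0.68.

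Other cells of the muscle differed as well. The summed signal of 9 fibroblast markers was 13990 to 15928 in Tk2+/+ and 7926 to 9846 in Tk2-/- skeletal muscle, with 6 called lower and 1 higher, and that of 7 satellite cell and myoblast markers was 890 to 1411 against 480 to 830, with 4 called lower. Of 6 adipocyte markers 5 were called higher (sum 2029 to 2510 against 3539 to 4957) and 1 lower. Of all genes 11.6% were called higher and 10.9% lower. Of the 10 skeletal fibre markers limma called 0, also at an unadjusted p under 0.05 (sum 45520 to 61129 against 51369 to 55258). In a bulk tissue, fewer cells of a type and less RNA per cell cannot be told apart, and the part of these shifts in the values of the 8 genes was not tested.

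In heart, 7 of the 8 genes were called lower in Tk2-/- arrays as deposited, where 49% of all genes and 84.7% of the genes with a signal over 200 were called lower and 1.99% of all genes higher. All 8 genes had no overlap between the genotypes, as did 53.3% of all genes in that direction. The median change of the 8 genes was -0.68, equal to that of the brighter genes. Once quantile normalized within the tissue, limma called 0 of the 8 lower (1, Sgcd, at an unadjusted p under 0.05), Sgca was called higher, and the median was -0.02, with 13.9% of all genes called higher and 17.9% lower. The result depended on the scaling. Median centring of the arrays left 7 of the 8 called lower, all but Sgca, with changes from -0.37 for Dmd to -0.79 for Sgcd, whereas upper-quartile scaling, which follows the brighter genes, left 0 called lower and Sgca called higher. Median centring shifts all genes of an array alike, and as deposited the median change was -0.28 over all genes and -0.68 over the brighter genes. The share of brighter genes called lower after median centring was not counted, so these 7 calls cannot be set apart from that background.

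Dmd, Utrn and Dag1 were called lower in Tk2-/- heart as deposited and after median centring, and did not pass after quantile normalization within the tissue. Dmd had 681, 782 and 762 in Tk2+/+ heart and 497, 573 and 439 in Tk2-/- heart, a change of -0.55 (SE 0.12, adjusted p = 0.001) that became 0.12 (adjusted p = 0.377) after quantile normalization. With sex in the model the change of Dmd as deposited was -0.51 (adjusted p = 0.00279). Utrn had 443, 399 and 444 against 285, 294 and 241, a change of -0.62 (adjusted p = 9.75e-05) that became 0.06 (adjusted p = 0.674). Dag1 had 2009, 1992 and 2063 against 1187, 1399 and 1072, a change of -0.73 (adjusted p = 6.7e-05) that became -0.10 (adjusted p = 0.339). For these 3 genes the interval after quantile normalization included 0, from -0.09 to 0.32 for Dmd, -0.15 to 0.27 for Utrn and -0.25 to 0.06 for Dag1.

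The sarcoglycans held both the smallest and the largest change of the 8 genes in heart as deposited. Sgca had 991, 1001 and 1024 in Tk2+/+ and 855, 899 and 876 in Tk2-/- heart, a change of -0.19 (SE 0.13, adjusted p = 0.237). Relative to the other genes of the tissue it stood higher, with a quantile normalized change of 0.49 (SE 0.08, adjusted p = 0.000544), and leaving out any 1 array kept that call, with values from 0.45 to 0.52. Sgcb had 1138, 987 and 1034 against 594, 700 and 501, a change of -0.81 (adjusted p = 1e-04) as deposited and -0.12 (adjusted p = 0.327) after normalization. Sgcd went from 445, 428 and 446 to 185, 286 and 190, a change of -0.97 (SE 0.15, adjusted p = 5.83e-05). After normalization it was -0.29 (adjusted p = 0.0884), and without Tk2-/- replicate 2, the brightest Tk2-/- array for Sgcd, it was -0.42 and passed (adjusted p = 0.00981).

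Dtna and Sspn were also lower as deposited in Tk2-/- heart. Dtna had 570, 628 and 647 in Tk2+/+ and 388, 488 and 359 in Tk2-/- heart, a change of -0.57 (adjusted p = 0.00228) that became 0.11 (adjusted p = 0.389). Sspn had 944, 947 and 949 against 511, 631 and 440, a change of -0.84 (SE 0.14, adjusted p = 0.000113) that became -0.16 (adjusted p = 0.31). In Tk2+/+ heart the 3 arrays of Sspn had a coefficient of variation of 0.269%, the lowest of any member and group. Among the other cells of the heart, 9 of 9 fibroblast, 8 of 8 macrophage, 8 of 9 endothelial and 8 of 9 smooth muscle and pericyte markers were called lower as deposited, with 0 higher by limma, also at an unadjusted p under 0.05. As deposited 49% of all genes and 84.7% of those with a signal over 200 were called lower. After quantile normalization 6 fibroblast, 7 macrophage, 4 endothelial and 3 smooth muscle markers were called lower, and 1 fibroblast, 1 endothelial and 1 smooth muscle marker higher. Of all genes 17.9% were then lower and 13.9% higher. Of 9 cardiomyocyte markers 2 were called lower as deposited, and after normalization 1 was lower and 1 higher, with a median change of 0.20. The 10 skeletal fibre markers summed to 1541 to 1992 in Tk2+/+ and 236 to 312 in Tk2-/- heart, and Acta1 made up most of the Tk2+/+ sum, with a mean of 1404 ± 161 against 105 ± 16.3 in Tk2-/- heart (SD, n = 3 each). Without Acta1 the other 9 summed to 257 to 523 and 146 to 201, and 5 of them were called lower. The part of these differences in the heart values was not tested.

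The effect of the genotype in skeletal muscle minus that in heart was tested directly. As deposited it passed for 7 of the 8 genes, all with the higher value in skeletal muscle, where 41.3% of all genes did so and 1.39% passed the other way. It was 1.07 for Dmd (SE 0.17, adjusted p = 0.000246), the largest of the 8. On arrays quantile normalized within their tissue it was 0.28 for Dmd (adjusted p = 0.214), and Dtna alone passed, with -0.44 (adjusted p = 0.048), lower in skeletal muscle, among 6% of all genes higher and 4.54% lower. The Dtna call was lost in 10 of the 12 fits that left out 1 array. So Dmd was called higher in Tk2-/- skeletal muscle and not in heart, but once the arrays were on 1 distribution the difference between its effects in the tissues did not pass the test.

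Levels also differed between the tissues of one genotype. In Tk2+/+ mice 3 of the 8 genes were called higher in skeletal muscle than in heart and 1 lower, beside 30.6% and 18.4% of all genes, and quantile normalization over the 12 arrays gave the same counts beside 19.3% and 21.9%. Sgca showed the largest difference, 0.80 (SE 0.13, adjusted p = 0.000136) as deposited and 0.91 (adjusted p = 8.11e-07) after normalization, with signals of 1527 to 2253 in skeletal muscle and 991 to 1024 in heart. Dtna was higher by 0.58 (adjusted p = 0.00324) and by 0.68 after normalization (adjusted p = 5.57e-05). Sgcb was higher by 0.35 (adjusted p = 0.0392) and by 0.47 after normalization (adjusted p = 0.000707), and as deposited its call was lost without any of 5 arrays (Tk2+/+ skeletal muscle replicate 1 or 2, Tk2+/+ heart replicate 2 or 3, Tk2-/- heart replicate 1). Sspn went the other way, at 469 to 639 in skeletal muscle and 944 to 949 in heart, a difference of -0.74 (SE 0.14, adjusted p = 0.000604) that was -0.64 after normalization (adjusted p = 0.000532). Dmd did not separate the tissues of Tk2+/+ mice, with means of 746 and 742 and an interval of the difference from -0.25 to 0.26. Median centring of the arrays turned these counts to 1 higher and 4 lower.

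In Tk2-/- mice the same tissue difference was measured against the dimmer heart arrays, and 7 of 8 genes were called higher in skeletal muscle as deposited, beside 59.5% of all genes higher and 4.55% lower. After quantile normalization over 12 arrays 4 were called higher and 2 lower, beside 19.1% and 18.8%. Sgca (0.64, adjusted p = 1.99e-05), Sgcb (0.50, adjusted p = 0.000442), Dmd (0.38, adjusted p = 0.00644) and Dtna (0.25, adjusted p = 0.0496) were the higher ones, and Utrn (-0.34, adjusted p = 0.0129) and Sspn (-0.88, adjusted p = 3.32e-05) the lower ones. Utrn therefore changed its sign with the scaling, from 0.32 as deposited (adjusted p = 0.0121). Sgca, Sgcb and Dtna stood higher in skeletal muscle and Sspn higher in heart in both genotypes after this normalization.

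**Figure D3:**
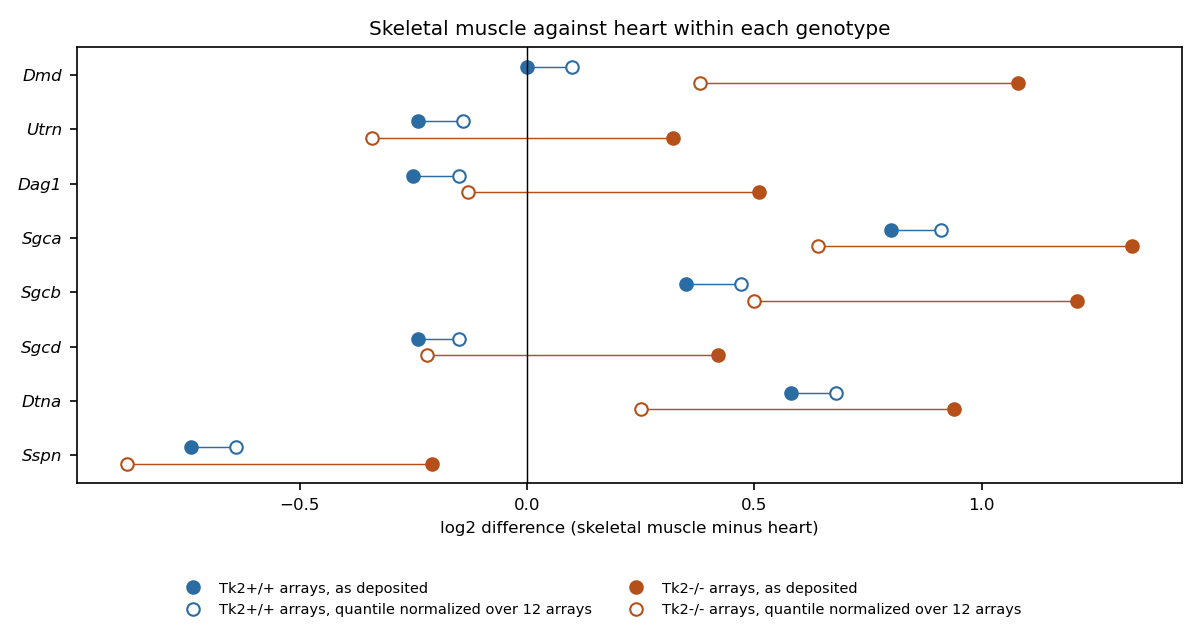
Log2 difference between skeletal muscle and heart for each gene within Tk2+/+ (blue) and Tk2-/- (orange) arrays, as deposited (filled) and after quantile normalization over 12 arrays (open). Sgca lies right of 0 and Sspn left of 0 in all 4 values, whereas Utrn in Tk2-/- mice moves from 0.32 to -0.34.

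With the 4 groups set in order of their mean log2 signal as deposited, 13 of the 24 steps between neighbours did not pass the test. For Dmd, skeletal muscle of Tk2-/- mice came first, followed by that of Tk2+/+ mice, then Tk2+/+ heart, with Tk2-/- heart last, and the middle step was the one that did not pass. Utrn, Dag1 and Sgcd were highest in Tk2+/+ heart, with the skeletal muscle groups next, and for these only the last step, down to Tk2-/- heart, passed (adjusted p = 0.0121 for Utrn, 0.00187 for Dag1 and 0.0224 for Sgcd). Sgca had 1 step that passed, between the skeletal muscle groups and the heart groups. For Sgcb and Dtna the last 2 of the 3 steps passed, and for Sspn the first one, from Tk2+/+ heart to Tk2+/+ skeletal muscle. Steps between groups that differ in tissue and genotype were read beside 61.5% of all genes higher and 5.62% lower in Tk2+/+ skeletal muscle than in Tk2-/- heart, and 33.7% and 20.7% in Tk2-/- skeletal muscle than in Tk2+/+ heart.

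Replicate spread differed by group. The coefficient of variation of the 8 genes had a median of 15.5% in Tk2+/+ skeletal muscle, 8.29% in Tk2-/- skeletal muscle, 4.11% in Tk2+/+ heart and 15% in Tk2-/- heart, against 13.5%, 8.35%, 8.08% and 10.9% over genes with a signal over 200. The widest was 26%, for Sgcd in Tk2-/- heart, where replicate 2 had 286 and the others 185 and 190. In Tk2+/+ skeletal muscle replicate 2 was the highest array for Dmd, Dag1, Sgca, Sgcb, Sgcd and Dtna, but not for Utrn and Sspn.

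No member had another member as its nearest gene by pattern (0 of 8), but with so few members among the genes compared this was all but fixed beforehand. It does not tell whether the members vary together. The measure was the root mean square difference of log2 signals over 12 arrays after quantile normalization over these arrays, with each gene centred on its mean, and 10090 genes with a mean signal over 50 were compared. Nearest to Dmd were Ahctf1 and Cab39, both at 0.07, to Utrn Ssh1 and Ap3s1, both at 0.08, and to Dag1 Arpc1a and Rab2b, both at 0.05. For the sarcoglycans these were Mtdh (0.08) and Synrg (0.09) for Sgca, Dpp8 (0.06) and Slc44a2 (0.07) for Sgcb, and Lig4 (0.06) and Smdt1 (0.10) for Sgcd. Dtna lay nearest to Sh2b1 (0.08) and Bola1 (0.10), and Sspn to Lrrk2 (0.10) and Nr3c2 (0.12). Among the members themselves Dtna came closest to Sgcb, at 0.15 and place 79 of its list, and Utrn to Dag1, at 0.12 and place 91. The nearest member to Dmd was Sgcb, at 0.26 and place 2942. How these places compare with those of genes drawn at random was not tested. The genes share their 12 arrays, so these distances are a description.

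Around the 8 genes, 82 further genes of the complex and its surroundings were listed, and 69 had a probe set of their own. In Tk2-/- skeletal muscle 6 of them were called higher and 24 lower, that is 8.7% and 34.8%, beside 11.6% and 10.9% of all genes, and after quantile normalization 7 and 32. In Tk2-/- heart 53, or 76.8%, were called lower and 0 higher as deposited, beside 49% of all genes and 84.7% of the genes with a signal over 200 called lower, and 37 were lower and 5 higher after quantile normalization, which is 53.6% and 7.25% beside 17.9% and 13.9% of all genes. At an unadjusted p under 0.05, limma called 0 of them higher in heart as deposited and 8 after quantile normalization. The lists were counted and not tested as sets. A share among genes with a signal over 200 is given for heart as deposited alone. The counts in skeletal muscle and after normalization, here and below, are therefore not matched for brightness, and its part in them was not tested.

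Of the other sarcoglycans, syntrophins and dystrophin relatives 8 of 10 were measured, and 2 were called lower in Tk2-/- skeletal muscle, beside 10.9% of all genes. Sntb1, a syntrophin that anchors signalling proteins, fell from 778, 696 and 563 to 463, 502 and 514 (log2 change -0.44, adjusted p = 0.0334). Sgce, the sarcoglycan also made outside striated muscle, fell from 386, 403 and 354 to 312, 293 and 263 (-0.38, adjusted p = 0.0276). Neither gene overlapped between the genotypes, but both were named because they were called, so this is no further support. In heart Sntb1 (-1.07), Sntb2 (-0.95) and Sgce (-0.77) were called lower as deposited, and after quantile normalization Sntb1 was -0.39 (adjusted p = 0.0214), Sntb2 was -0.29, and Sgce was -0.08 and no longer passed (adjusted p = 0.507).

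Another list held genes of proteins that the complex holds at the membrane, or that work beside it in membrane repair. In skeletal muscle 6 of its 13 measured genes were called lower and 0 higher by limma (1 higher at an unadjusted p under 0.05). Of all genes 10.9% were called lower and 11.6% higher. Aqp4, the water channel of fast fibres that syntrophin anchors, had 709, 812 and 618 in Tk2+/+ and 163, 265 and 273 in Tk2-/- skeletal muscle, a change of -1.57 (SE 0.21, adjusted p = 8.02e-05). Dysf, the membrane repair protein dysferlin, changed by -0.76 (adjusted p = 0.00422), from a mean of 568 ± 90.5 to 330 ± 60.8 (SD, n = 3 each). Nos1, the neuronal nitric oxide synthase that the complex anchors, had 62.2, 77.1 and 85.4 against 42.5, 50.8 and 47.2, a change of -0.53 (adjusted p = 0.00471). None of these 3 overlapped between the genotypes in skeletal muscle, but they were picked as the called genes of the list with the largest changes. Their separation is therefore no further support. Quantile normalized, they were -1.65, -0.85 and -0.48, and 8 of the 13 genes were called lower, beside 14.8% of all genes.

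In heart the same list had 10 genes called lower as deposited and 6 after quantile normalization, with 1 higher. As deposited 49% of all genes and 84.7% of those with a signal over 200 were called lower. After normalization 17.9% of all genes were lower and 13.9% higher. Anxa2, an annexin that takes part in membrane repair, changed by -1.68 (adjusted p = 1.7e-07) and by -1.0 after normalization. Dysf changed by -1.52 and by -0.85 (adjusted p = 0.000792), so that its normalized change was -0.85 in each tissue. Trim72, the repair protein also called MG53, had 645, 547 and 546 in Tk2+/+ heart and 178, 278 and 167 in Tk2-/- heart, a change of -1.44 that was -0.76 after normalization. Aqp4 changed in heart by -0.02 after normalization (adjusted p = 0.953), beside -1.65 in skeletal muscle. The difference between its effects in the tissues passed as deposited (-0.89, adjusted p = 0.026), on values that include the dimmer Tk2-/- heart arrays. A test of that difference for Aqp4 after normalization is not given here.

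Of 18 genes for enzymes that build the laminin-binding sugars of α-dystroglycan, 12 were measured. In skeletal muscle 1 of these genes was called higher and 3 lower. Of all genes 11.6% were called higher and 10.9% lower. Dpm1, a subunit of the synthase that makes the mannose donor, rose from 398, 531 and 399 to 695, 829 and 644 (0.69, SE 0.13, adjusted p = 0.00155). Pomk, the kinase that phosphorylates the O-mannose glycan, fell from 134, 142 and 106 to 77, 56.8 and 69.3 (-0.77, adjusted p = 0.000696). Gmppb, which makes GDP-mannose, fell by 0.59 on the log2 scale (adjusted p = 0.00949), at signals of 12.9 to 49 that lie close to the offset. In heart 10 of 12 were called lower as deposited, led by Pomt1 (-1.11), Pomgnt1 (-0.94) and Pomk (-0.88). As deposited 49% of all genes and 84.7% of those with a signal over 200 were called lower. After quantile normalization 6 were lower and 1 higher, beside 17.9% and 13.9% of all genes. Pomt1 was then -0.55, Pomgnt1 -0.27 and Pomk -0.47, while Dpm1 was called higher (0.65, adjusted p = 0.00147).

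Outside the fibre, the laminins, collagen VI and other basement membrane genes fell for 8 of 16 measured genes in skeletal muscle, with 0 higher by limma, also at an unadjusted p under 0.05. Of all genes 10.9% were called lower and 11.6% higher. Col6a3 and Col6a2, chains of collagen VI, changed by -1.56 (adjusted p = 4.56e-05) and -1.41 (adjusted p = 1.85e-05), and Lama4, a laminin chain found mainly around vessels, by -1.11 (adjusted p = 9.26e-05). Lama2, the laminin chain of the muscle basement membrane that α-dystroglycan binds, had 880, 946 and 801 in Tk2+/+ and 760, 718 and 668 in Tk2-/- skeletal muscle. These did not overlap, but the change of -0.28 missed the threshold (adjusted p = 0.09) and passed after quantile normalization (-0.41, adjusted p = 0.00117). Lama2 lies outside the genes set to be named and was chosen after its values were seen. In heart 14 of the 16 were called lower as deposited, beside 49% of all genes and 84.7% of those with a signal over 200. After quantile normalization 11 were lower and 2 higher, beside 17.9% and 13.9% of all genes. Col6a3 was then -1.95, Col6a2 -1.32, Lama4 -1.31 and Lama2 -0.26 (adjusted p = 0.0189). Fibroblasts make collagen VI, and 6 of the 9 fibroblast markers were called lower and 1 higher in Tk2-/- skeletal muscle, as in Tk2-/- heart after quantile normalization. Their part in these values was not tested.

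The costamere and the cytoskeleton under the membrane held the largest increases among the listed genes, with 5 of 20 measured genes higher and 5 lower in skeletal muscle. Of all genes 11.6% were called higher and 10.9% lower. Krt18, a keratin, had 24.5, 20.9 and 20.3 in Tk2+/+ and 491, 193 and 112 in Tk2-/- skeletal muscle (2.65, SE 0.34, adjusted p = 5.66e-05), with no overlap but a wide spread among Tk2-/- arrays. Its Tk2+/+ signals lie close to the offset of 16, so its change is understated on this scale. Krt18 too was named for its large change. Csrp3, the muscle LIM protein of the Z-disc and costamere, had 302, 527 and 370 against 1811, 953 and 689 (1.41, adjusted p = 0.00105). Ank3, an ankyrin that tethers dystrophin and dystroglycan at the costamere, had 624, 677 and 578 against 1467, 1597 and 1408 (1.23, SE 0.10, adjusted p = 1.13e-06). Ank3 and Dmd were thus both called higher in skeletal muscle. In heart both were called lower as deposited (Ank3 -0.67, Dmd -0.55), and neither passed after quantile normalization (Ank3 0.02, adjusted p = 0.876). For Dmd the normalized difference between its effects in the tissues did not pass in limma (0.28, adjusted p = 0.214). In heart 16 of 20 were called lower as deposited and 12 after normalization, with 0 higher by limma either way (0 and 2 at an unadjusted p under 0.05). As deposited 49% of all genes and 84.7% of those with a signal over 200 were called lower. After normalization 17.9% of all genes were lower and 13.9% higher. Flnc, which binds the sarcoglycans, changed by -1.64 and by -0.95 after normalization, Actg1, a cytoplasmic actin, by -1.46 and -0.85, and Itgb1bp2, the integrin-binding protein melusin, by -1.29 and -0.62.

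**Figure D4:**
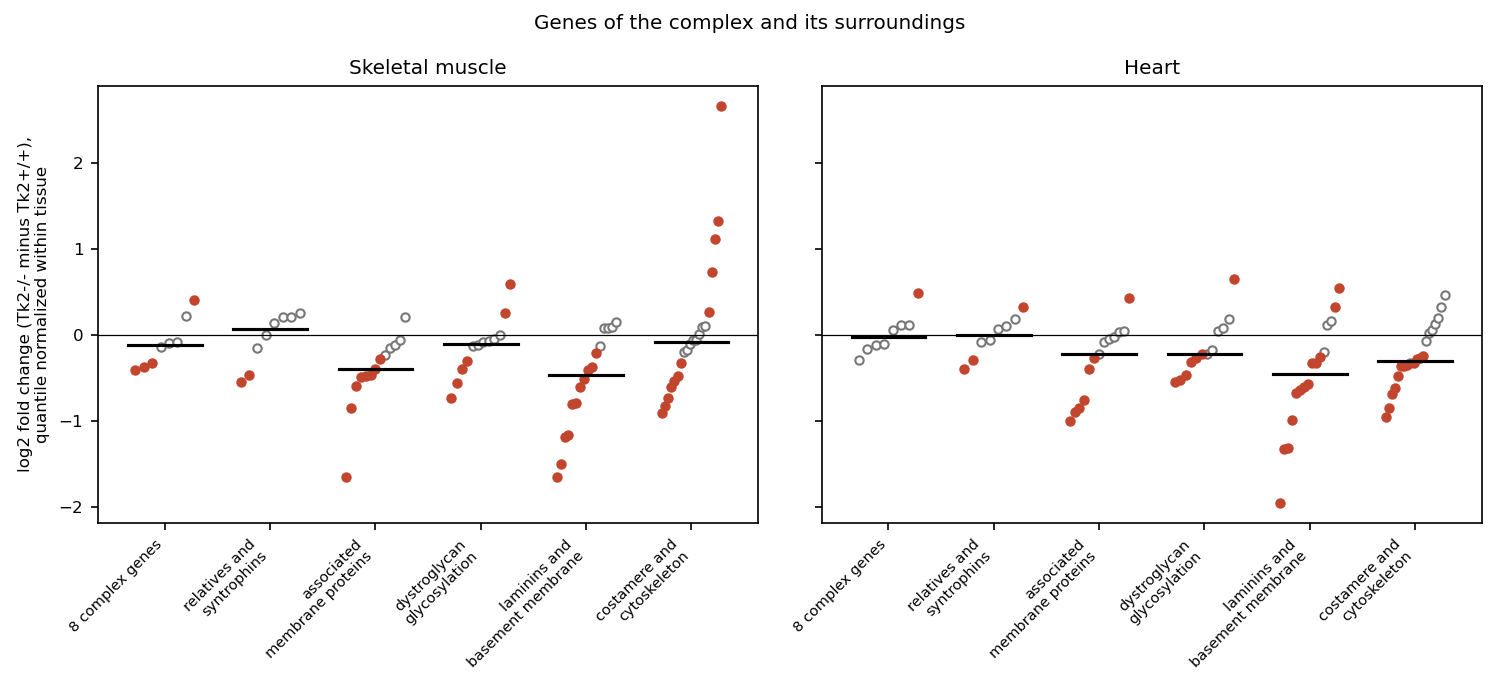
Log2 change between Tk2-/- and Tk2+/+ after quantile normalization within the tissue for the 8 genes and the 5 lists around them, 1 point per gene, in skeletal muscle (left) and heart (right); filled points passed the threshold and black bars are list medians. The medians of the 8 genes are -0.12 and -0.02, and those of the laminin and basement membrane list -0.46 and -0.45.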

How the data were processed

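Affymetrix Mouse Gene 1.1 ST arrays had been hybridised with total RNA labelled with the Ambion WT Expression kit. The authors deposited linear intensities, 1 for each probe set on each array. PLIER and Affymetrix Expression Console are named in the submitters' processing notes, with no version, and the methods state that data were normalized without naming a procedure. The arrays were not on 1 distribution. All 12 sample columns were used.

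Of 35556 probe sets, 21218 carried 1 symbol, 1881 several and 12457 none. The brightest probe set stood for a gene, which left 18820 genes. Gene positions and promoters were from RefSeq, assembly GRCm38.p6. Signals plus 16 were put on the log2 scale and 4 group means were fitted by limma (version 3.58.1, R 4.3.3) through lmFit and eBayes, which left 8 residual degrees of freedom. Tests were 2-sided and adjusted by Benjamini-Hochberg over all genes. The fit was also run on simulated data, made by shuffling each gene's deviations from its group means over the arrays. Such data lack the dimmer Tk2-/- heart arrays and the unequal spread of the groups. The outcome of that run is not given here. Figures were drawn with Python 3.11.15 and matplotlib 3.10.9. The precision is limited by 3 arrays a group.

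The members, lists and tests were chosen with earlier results of these data known. Named beside the 8 genes were, per list and tissue, up to 3 called genes with the largest change and, per member, the 2 nearest genes by pattern. Alternatives were other scalings, offset 1, leaving out dim genes (11109 kept), other probe set rules, priors, weights, blocks, the methods' t-test and leaving out each array. Sex as a covariate and quantile normalization combined with other changes were added after the data were seen. Proteins are not shown here.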

Additional observations from a re-analysis of the deposited data

Results flagged for a closer look

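The effect of the Tk2-/- genotype differed between skeletal muscle and heart for 7 of the 8 genes as deposited, by the interaction term of the limma fit, all with the higher value in skeletal muscle, as did 41.3% of all genes. The difference (skeletal muscle minus heart, log2) was 1.07 for Dmd, 0.56 for Utrn (adjusted p = 0.00511), 0.76 for Dag1 (adjusted p = 0.00153), 0.53 for Sgca (adjusted p = 0.0271), 0.86 for Sgcb (adjusted p = 0.00181), 0.66 for Sgcd (adjusted p = 0.0183) and 0.53 for Sspn (adjusted p = 0.0398). The median of this difference over all genes was 0.30, and over genes with a signal over 200 it was 0.78. After quantile normalization within each tissue none of these 7 passed, and Dtna did, at -0.44 (adjusted p = 0.048). Among the values as deposited, the call of Sgca was lost without Tk2+/+ skeletal muscle replicate 1 or 3, Tk2-/- skeletal muscle replicate 2, Tk2+/+ heart replicate 3 or Tk2-/- heart replicate 1, that of Sgcd without Tk2+/+ skeletal muscle replicate 3 or Tk2-/- heart replicate 1 or 3, and that of Sspn in 8 of 12 such fits. The part of the dimmer Tk2-/- heart arrays in these differences was not tested beyond the normalizations given.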

How the results depend on the processing

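Counts of the 8 genes (higher and lower) were, as deposited, 1 and 0 in skeletal muscle, 0 and 7 in heart, 7 and 0 for the difference of effects, 3 and 1 between Tk2+/+ tissues and 7 and 0 between Tk2-/- tissues. Median centring gave 4 higher for the difference, 1 and 4 between Tk2+/+ tissues and 4 and 1 between Tk2-/- tissues. Upper-quartile scaling gave 2 higher in skeletal muscle, 1 and 0 in heart, 0 higher for the difference and 4 and 2 between Tk2-/- tissues. Quantile normalization over 12 arrays gave 3 lower in skeletal muscle, 1 and 0 in heart, 0 higher for the difference and 4 and 2 between Tk2-/- tissues. Quantile normalization within each tissue gave 3 lower in skeletal muscle, 1 and 0 in heart, 0 and 1 for the difference and 4 and 1 between Tk2-/- tissues, and cyclic loess within each tissue 3 lower, 1 and 0, 0 higher and 4 and 1. Array weights gave 2 and 1 in skeletal muscle and 2 lower between Tk2+/+ tissues. The methods' t-test gave, with Benjamini-Hochberg adjustment, 0 higher in skeletal muscle and 1 higher between Tk2+/+ tissues, and, at an unadjusted p under 0.05 and a fold of at least 2, 0 in skeletal muscle, 0 lower in heart, 0 and 0 between Tk2+/+ tissues and 3 higher between Tk2-/- tissues. Sex as a covariate gave 2 higher in skeletal muscle, as deposited and after quantile normalization within each tissue, and in the latter the difference had 0 lower, as it had with the replicate block. In the other alternatives (offset 1, without dim genes, probe set rules, each tissue alone, trend and robust prior) every count stayed within 1.5 times that given first.

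Some signs turned with the scaling, and the cause was not tested. In Tk2-/- against Tk2+/+ skeletal muscle, quantile normalization over 12 arrays and within each tissue gave -0.08 for Dag1 and -0.09 for Sgcb, and loess -0.11 and -0.08. In heart, upper-quartile scaling gave 0.12 for Dmd, 0.04 for Utrn, 0.49 for Sgca and 0.10 for Dtna. Quantile normalization gave 0.12 for Dmd, 0.06 for Utrn, 0.48 (12 arrays) and 0.49 (within tissue) for Sgca and 0.11 for Dtna, and loess gave 0.13, 0.07, 0.46 and 0.12 for Dmd, Utrn, Sgca and Dtna. For the difference of effects, upper-quartile scaling gave -0.10 for Utrn, -0.16 for Sgca, -0.31 for Dtna and -0.15 for Sspn. In the same difference quantile normalization over 12 arrays gave -0.20 for Utrn, -0.27 for Sgca, -0.07 for Sgcd, -0.44 for Dtna and -0.24 for Sspn, within each tissue -0.20, -0.27, -0.08, -0.44 and -0.25, and loess -0.21, -0.27, -0.10, -0.43 and -0.23. Between Tk2+/+ tissues, Dmd was -0.25 after median centring, -0.01 with array weights and -0.04 with sex as a covariate, and Utrn, Dag1 and Sgcd were 0.11, 0.08 and 0.10 after quantile normalization within each tissue and 0.16, 0.13 and 0.15 after loess. Between Tk2-/- tissues, Utrn was -0.07 after median centring, -0.27 after upper-quartile scaling, -0.34 and -0.09 after quantile normalization over 12 arrays and within each tissue, and -0.05 after loess, Dag1 was -0.11 after upper-quartile scaling and -0.13 after quantile normalization over 12 arrays, and Sgcd -0.17 and -0.22.

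Leaving out 1 array at a time gave, as deposited, 1 to 2 higher and 0 to 1 lower in skeletal muscle, 0 higher and 7 lower in heart, 4 to 8 higher for the difference, 2 to 3 higher and 1 to 2 lower between Tk2+/+ tissues and 5 to 7 higher between Tk2-/- tissues. After quantile normalization within each tissue it gave 1 to 2 higher and 0 to 3 lower in skeletal muscle, 1 higher and 0 to 1 lower in heart, 0 to 1 lower for the difference, 4 to 5 higher and 0 to 1 lower between Tk2+/+ tissues, and 4 and 1 between Tk2-/- tissues. Signs turned for Dag1 (-0.05 to 0.12) and Sgcb (-0.05 to 0.17) in skeletal muscle and for Dmd (-0.09 to 0.06) between Tk2+/+ tissues, and after that normalization for the differences of Dag1 (-0.03 to 0.07), Sgcb (-0.04 to 0.10) and Sgcd (-0.19 to 0.05) and for Sgcd between Tk2-/- tissues (-0.09 to 0.15).

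Replicate numbers recur in each group, but 2 of 12 pairs of arrays with the same number deviated together by a correlation over 0.1 and 3 of 12 arrays matched their own number best, so the numbers were not taken as pairs. With the replicate block Dmd in skeletal muscle was 0.52 (adjusted p = 0.00184), and no count of calls moved as deposited. With heart and muscle arrays of a genotype and number taken as 1 animal, the correlation was -0.0187, but by Xist 2 of these 6 pairs differed in sex and cannot be 1 animal.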

Other observations

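Relatives and partners of the complex also separated the tissues of Tk2+/+ mice. Drp2, a dystrophin relative made by Schwann cells and in brain, had signals from 624 to 828 in skeletal muscle against 29 to 29.7 in heart, a log2 difference of 4.03 (adjusted p = 9.24e-12). Aqp4 and Nos1 were higher in skeletal muscle by 1.33 (adjusted p = 0.000143) and 1.27 (adjusted p = 5.81e-07). Csrp3 (-2.84, adjusted p = 4.21e-07) and Lama2 (-0.67, adjusted p = 0.00024) were higher in heart. Of 13 genes for proteins held at the membrane or active in its repair, 5 were called higher in skeletal muscle and 0 lower. Of 16 basement membrane genes 2 were called higher and 11 lower, beside 30.6% and 18.4% of all genes as deposited. Quantile normalization over 12 arrays gave 6 and 0 of the 13 and 3 and 11 of the 16, beside 19.3% and 21.9%. Normalization within each tissue, which leaves the tissues on separate distributions, gave 11 and 0 of the 13 but 5 and 5 of the 16, beside 49.6% and 10.7%. Drp2 was chosen after its values were seen.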
